A study of Rattus norvegicus with 31 samples.

Results

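The genes described here are 40 genes of the dividing cell, 14 that act in S phase, when DNA is copied, and 26 that act in mitosis, when the chromosomes are parted and the cell is split. They were measured in rat testis on Affymetrix arrays. For each gene the probe set with the highest mean over all arrays was taken. A probe set was found for 38 of the 40 members, out of 14217 genes with a probe set in all. No probe set bore the name Tpx2, and the 2 probe sets for Rrm2 are shared with a related gene, so that neither was used. A filter on low values, which asked for a value above the 40th percentile of its own array in at least 6 arrays, was passed by 34 members (12 of S phase and 22 of mitosis). Ccne1, Bub1b, Kif20a and Cenpe did not pass.

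All 31 arrays came from LBNF1 rats, 25 to 27 weeks old, whose lower abdomen had been irradiated with 6 Gy, so that every group, sham included, is labelled as irradiated. The first group had hormonal ablation plus estradiol (6 arrays), the second hormonal ablation alone (11 arrays) and the third sham treatment (14 arrays). Ablation means a GnRH antagonist, which lowers the pituitary hormones that drive the testis, together with flutamide, which blocks the androgen receptor. The comparisons ask which genes of the irradiated testis follow the ablation and which follow estradiol given on top of it. On the estradiol arrays the treatment label speaks of FSH supplementation too, though estradiol is the agent it lists. Of the sham arrays, 10 are described as control testes and 4 as irradiated testes, although the treatment label of all 14 is the same. The estradiol arrays were added to an older set that holds both other groups, so that estradiol and the newer deposit cannot be told apart. Each array is labelled as its own biological replicate.

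Values are logarithms of the signal as deposited, read here as log2 although no source used here states the base. Array medians lay between -1.44 and -1.24, and the 40th percentiles, called the filter level below, between -1.93 and -1.75. Levels of single probe sets are not set against each other, and sums over a list, given below, follow its brightest probe sets. Precision here depends on how many arrays a group has. The mean of 4 spermatid marker genes lay above 0 on 4 arrays (sham replicates 6 and 7, ablation replicates 4 and 9) and below 0 on the other 27, all 6 estradiol arrays included. The line at 0 is a choice: 6 more arrays (ablation replicates 5, 6, 7 and 11, sham replicates 8 and 13) lay between -1.73 and -0.46, above the filter level. The counts of members below are also given without the 4 highest arrays. Counts for the other gene lists are given with all arrays only.

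A cell commits to division when cyclin E with Cdk2 opens S phase. The MCM helicase then unwinds DNA at the origins, PCNA clamps the polymerases to the template, and ribonucleotide reductase, thymidylate synthase and thymidine kinase supply the building blocks. Cyclin A2 spans S phase and the entry to mitosis, cyclins B1 and B2 with Cdk1 drive mitosis, and kinesins, Aurora kinases, Plk1 and the checkpoint proteins carry it out. In the adult testis the dividing cells are mainly spermatogonia, while adult Sertoli and Leydig cells rarely divide. In irradiated testes of this rat strain the spermatogonia that survive go on dividing but fail to differentiate, and removal of gonadotropins and androgen action is known to let them differentiate again. In whole tissue, more dividing cells and more RNA of these genes per cell cannot be told apart.

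Ablation against sham gave 13 of the 34 members higher and 0 lower at an adjusted p under 0.05 (limma), against 9.24% of all 11379 genes tested called higher and 12.8% called lower. The 13 were 10 of the 22 mitosis members and 3 of the 12 S phase members. Kif2c and Ccna2, both among the 13, passed the filter mainly through treated arrays, where they are high. Of the 14 sham arrays, 0 lay above the filter level for Kif2c and 2 for Ccna2. Their smaller changes above that level are given under each gene. The median log2 change over the 34 members was 0.27, that over the mitosis members 0.33 and that over the S phase members 0.21, against 0.0004 over all genes. The change was positive in 30 members and negative in 4. For no member did all ablation arrays lie above all sham arrays, which held for 0.431% of all genes. Without the 4 arrays highest in spermatid markers 15 members were called higher and 0 lower, with Ect2 and Smc4 added. With the sham group cut to the 4 arrays described as irradiated, 6 were called higher and 0 lower, and Mcm4, Mcm7, Ccnb2, Kif2c, Nusap1, Racgap1 and Ube2c were no longer called. The median change of the members was then 0.29, with 30 positive, from fewer sham arrays.

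Ablation plus estradiol against sham gave 18 members higher and 1 lower, against 5.28% and 11.9% of all genes. Of the mitosis members 14 were higher and none lower, with Kif2c and Ccna2, which passed the filter mainly through treated arrays, among the 14. Of the S phase members 4 were higher, while Ccne2 was lower. The median change was 0.53 over all members, 0.59 over the mitosis members and 0.31 over the S phase members, against -0.03 over all genes. For 5 members (Ccnb1, Ccna2, Mki67, Mcm4 and Ube2c) every estradiol array lay above every sham array, which held for 0.835% of all genes. Without the 4 arrays highest in spermatid markers the count was 21 higher and 1 lower, with Cdk1, Plk1, Bub1 and Cdc20 added and Nusap1 lost. With the sham group cut to the 4 arrays described as irradiated it was 8 higher and none lower, at a median change of 0.50. Cdk1 was then added, and 12 members were no longer called (adjusted p of 0.0661 to 0.4): Ccne2, Mcm2, Mcm6, Mcm7, Ccnb2, Top2a, Aurkb, Kif11, Kif2c, Nusap1, Ect2 and Racgap1. The sham arrays are the same in both comparisons, so the 2 counts are not independent of each other.

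Ablation plus estradiol against ablation alone gave 1 member higher, Ccna2, and 1 lower, Ccne2, against 0.729% and 2.73% of all genes. The median change of the 34 members was 0.20, against -0.02 over all genes, with 31 changes positive and 3 negative. Ccna2 was the one member with every estradiol array above every ablation array, which held for 0.228% of all genes. Both calls are taken up under each gene below. A member that was not called here is not thereby shown to be alike in the treated groups, and 4 uncalled members (Ccnb1, Top2a, Aurkb and Smc4) had 95% intervals that exclude 0. The intervals of the other 28 included 0, with lower ends from -0.46 (Cdk2) to -0.010 (Ccnb2) and upper ends from 0.23 (Mcm7) to 1.13 (Plk1).

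**Figure D1:**
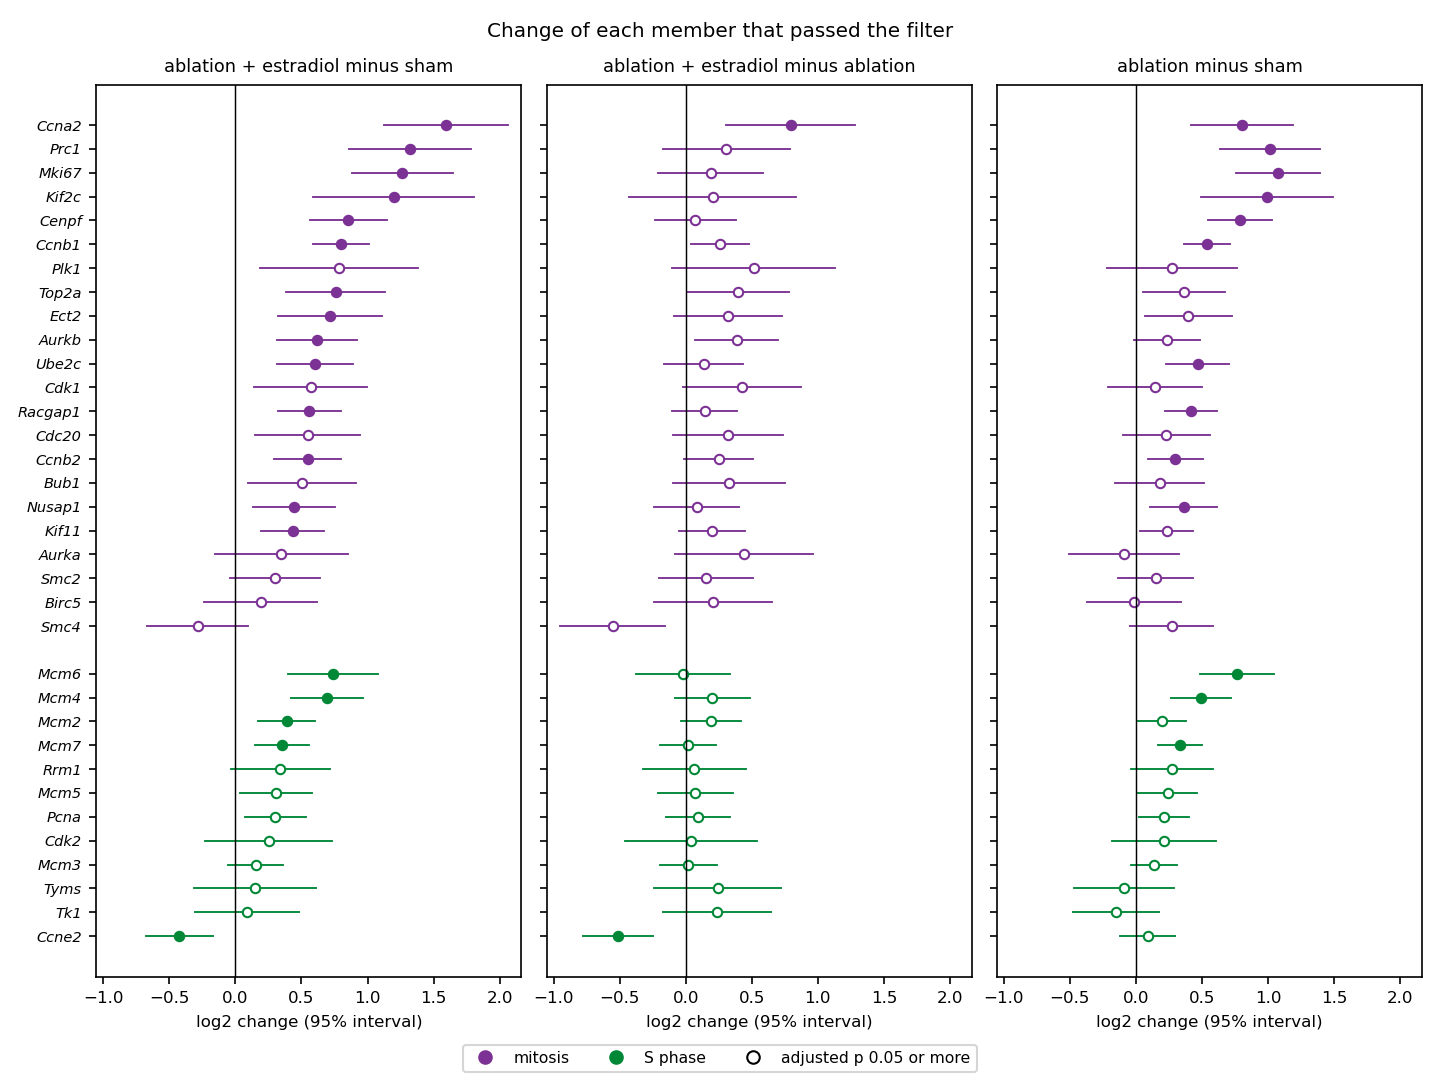
Log2 change of each of the 34 members that passed the filter, with its 95% interval, in the 3 comparisons. Filled points passed an adjusted p of 0.05. Most mitosis members lie right of 0 in the outer panels, while in the middle panel Ccna2 and Ccne2 are the filled points.

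**Figure D2:**
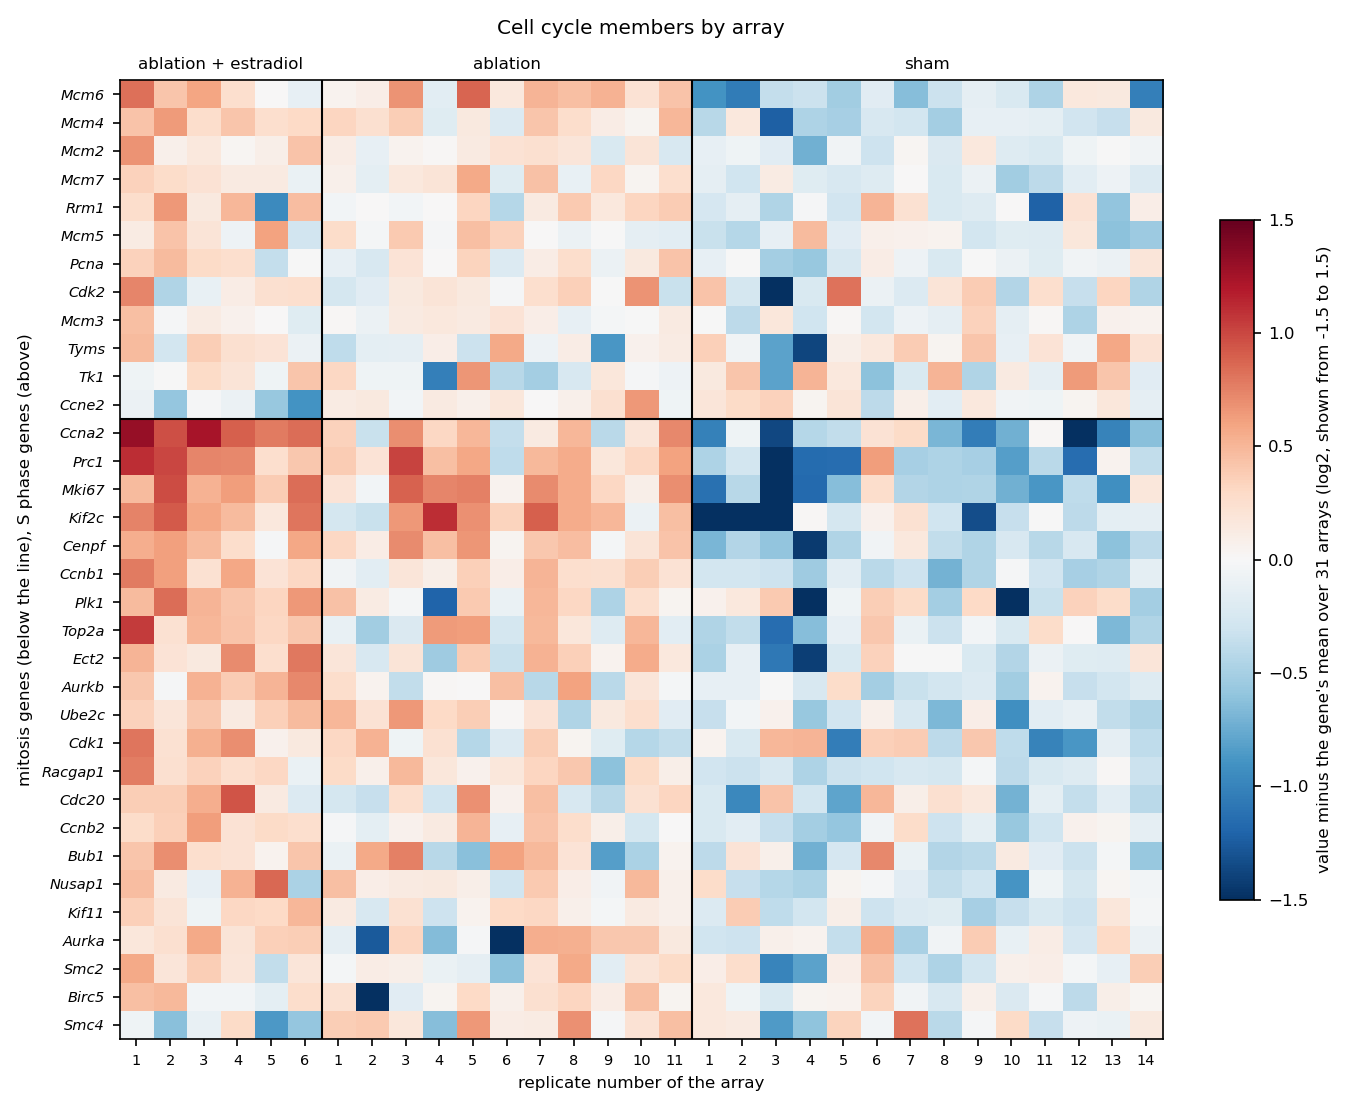
Each square is one member on one array, given as its deposited value minus the mean of that gene over the 31 arrays (log2). The mitosis rows from Ccna2 to Ccnb1 are above their mean on nearly all estradiol arrays and below it on most sham arrays, while rows such as Birc5 and Tk1 show no such order.

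Among the mitosis members the proliferation marker Mki67, which coats the chromosomes of dividing cells, had the smallest adjusted p of the members in ablation against sham. Its values lay at -0.38 to 0.22 with a median of -0.18 on the 6 ablation plus estradiol arrays, at -0.79 to 0.12 with a median of -0.20 on the 11 ablation arrays, and at -2.37 to -0.50 with a median of -1.31 on the 14 sham arrays. Every estradiol array lay above every sham array, whereas the ablation and sham arrays overlapped through 1 high sham array, replicate 6, the one highest in spermatid markers, and the next highest, replicate 14. The change was 1.26 ± 0.19 (log2 ± SE, 2.4-fold, adjusted p = 4.41e-06) for ablation plus estradiol against sham and 1.08 ± 0.16 (log2 ± SE, 2.11-fold, adjusted p = 2.05e-06) for ablation against sham. Between ablation plus estradiol and ablation the difference was 0.19 with a 95% interval of -0.21 to 0.59, which includes 0.

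Prc1, which bundles the microtubules of the central spindle, lay at -0.73 to 0.12 with a median of -0.26 on the 6 ablation plus estradiol arrays, at -1.36 to 0.031 with a median of -0.54 on the 11 ablation arrays, and at -3.06 to -0.36 with a median of -1.47 on the 14 sham arrays. The sham arrays were the most widely spread, and sham replicate 6 reached into both other groups. Prc1 rose by 1.32 ± 0.23 (log2 ± SE, 2.49-fold, adjusted p = 4.86e-05) with ablation plus estradiol and by 1.01 ± 0.19 (log2 ± SE, 2.02-fold, adjusted p = 0.000115) with ablation, each against sham, and the treated groups differed by 0.31 (95% interval -0.18 to 0.79). Cenpf, a kinetochore protein of late G2 and mitosis, lay at -0.37 to 0.27 with a median of 0.17 on the 6 ablation plus estradiol arrays, at -0.38 to 0.36 with a median of 0.052 on the 11 ablation arrays, and at -1.79 to -0.19 with a median of -0.78 on the 14 sham arrays, and each treated group overlapped the sham arrays. It was higher by 0.86 ± 0.15 (log2 ± SE, 1.81-fold, adjusted p = 3.69e-05) with ablation plus estradiol than with sham and by 0.79 ± 0.12 (log2 ± SE, 1.72-fold, adjusted p = 5.49e-06) with ablation than with sham. The range of the estradiol arrays lay within that of the ablation arrays for Cenpf, and the 2 groups differed by 0.07 (95% interval -0.24 to 0.38).

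The medians of the cyclins of mitosis were highest with ablation plus estradiol, lower with ablation and lowest with sham. Ccnb1, cyclin B1, lay at -0.28 to 0.29 with a median of -0.035 on the 6 ablation plus estradiol arrays, at -0.64 to 0.026 with a median of -0.26 on the 11 ablation arrays, and at -1.19 to -0.50 with a median of -0.79 on the 14 sham arrays. All 6 estradiol arrays lay above all 14 sham arrays, and the 2 lowest ablation arrays reached the sham range. Ccnb1 was higher by 0.80 ± 0.11 (log2 ± SE, 1.74-fold, adjusted p = 4.38e-07) with ablation plus estradiol and by 0.54 ± 0.087 (log2 ± SE, 1.45-fold, adjusted p = 1.44e-05) with ablation, each against sham. The difference between the treated groups was 0.26 (95% interval 0.039 to 0.48, adjusted p = 0.195) and was not called.

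Ccnb2, cyclin B2, lay at -0.85 to -0.43 with a median of -0.78 on the 6 ablation plus estradiol arrays, at -1.32 to -0.55 with a median of -0.99 on the 11 ablation arrays, and at -1.65 to -0.79 with a median of -1.25 on the 14 sham arrays, and the 3 groups overlapped. The estradiol and sham arrays overlapped through sham replicate 7 alone. The change was 0.55 ± 0.12 (log2 ± SE, 1.46-fold, adjusted p = 0.00161) with ablation plus estradiol against sham, and 0.30 ± 0.10 (log2 ± SE, 1.23-fold, adjusted p = 0.0375) with ablation against sham. The call of Ccnb2 in ablation against sham was lost on leaving out any one of sham replicates 3, 4, 5, 8, 10 and 11 or ablation replicates 4, 5, 7 and 8 (adjusted p up to 0.0806).

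Ccna2, cyclin A2, lay at -1.17 to -0.64 with a median of -1.01 on the 6 ablation plus estradiol arrays, at -2.35 to -1.22 with a median of -1.64 on the 11 ablation arrays, and at -3.46 to -1.65 with a median of -2.60 on the 14 sham arrays. The estradiol arrays lay above all ablation and all sham arrays, and the ablation arrays overlapped the upper part of the sham range. Ccna2 was higher by 1.59 ± 0.23 (log2 ± SE, 3.02-fold, adjusted p = 2.71e-06) with ablation plus estradiol than with sham, by 0.79 ± 0.24 (log2 ± SE, 1.73-fold, adjusted p = 0.0424) with ablation plus estradiol than with ablation, and by 0.80 ± 0.19 (log2 ± SE, 1.74-fold, adjusted p = 0.00232) with ablation than with sham. It was dim, with 6 of 6 estradiol, 8 of 11 ablation and 2 of 14 sham arrays above the filter level. Taken only above that level, with lower values raised to it, its changes were 0.88 for ablation plus estradiol against sham, 0.66 for ablation plus estradiol against ablation and 0.22 for ablation against sham. On that scale the change of Ccna2 in ablation plus estradiol against sham lay below those of Mki67, at 1.22, and Prc1, at 1.17, while in deposited values it lay above them. The call of ablation plus estradiol against ablation was lost (adjusted p = 0.0535) without the 4 arrays highest in spermatid markers, of which 2 are ablation arrays. It was also lost on leaving out any one of the 6 estradiol arrays or of ablation replicates 2, 4, 6, 7, 9 and 10 (adjusted p up to 0.105).

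Cdk1, the kinase that the mitotic cyclins activate, was not called in any of the comparisons. It lay at -1.42 to -0.68 with a median of -1.10 on the 6 ablation plus estradiol arrays, at -1.91 to -0.97 with a median of -1.55 on the 11 ablation arrays, and at -2.53 to -0.97 with a median of -1.67 on the 14 sham arrays, and the groups overlapped. Its difference was 0.57 ± 0.21 for ablation plus estradiol against sham (adjusted p = 0.0662), 0.43 (95% interval -0.018 to 0.88) for ablation plus estradiol against ablation, and 0.14 (95% interval -0.21 to 0.50) for ablation against sham. Without the 4 arrays highest in spermatid markers the first of these was called, at 0.66 with an adjusted p of 0.0379. It was also called on leaving out any one of sham replicates 3, 4, 6, 7 and 9 (adjusted p down to 0.0392). Against the 4 irradiated-testis sham arrays alone it was called too, at 1.01 (adjusted p = 0.00399).

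**Figure D3:**
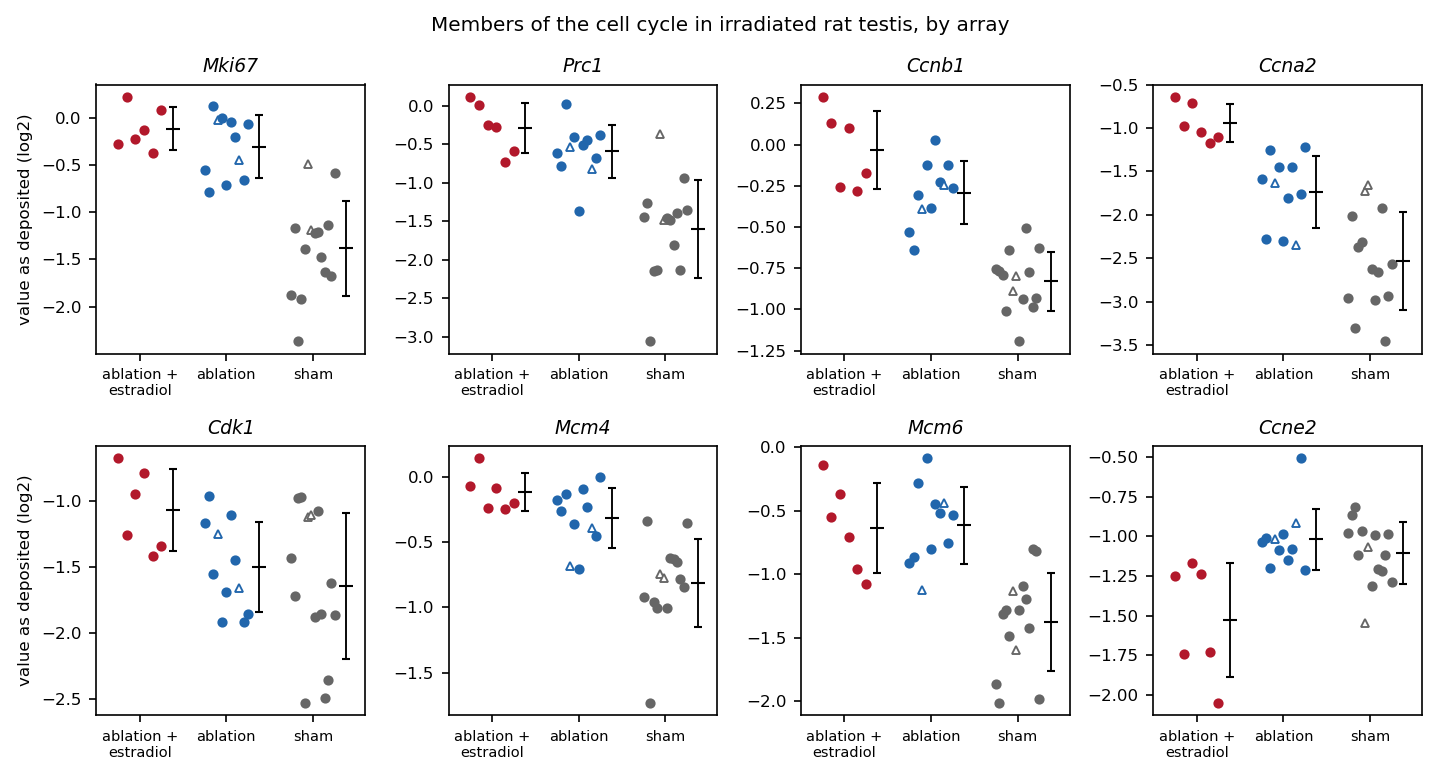
Deposited value (log2) of 8 members on every array, with the mean and SD of each group as a bar. Open triangles are the 4 arrays highest in spermatid markers. Ccna2 is highest on the estradiol arrays, lower on the ablation arrays and lowest on the sham arrays, Mki67, Prc1, Mcm4 and Mcm6 are high in both treated groups, and 3 of the estradiol arrays are the lowest for Ccne2.

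Kif2c, a kinesin that takes microtubules apart at the centromere, lay at -2.05 to -1.29 with a median of -1.54 on the 6 ablation plus estradiol arrays, at -2.55 to -1.11 with a median of -1.71 on the 11 ablation arrays, and at -4.50 to -1.98 with a median of -2.49 on the 14 sham arrays. The groups overlapped, the estradiol and sham arrays through sham replicate 7 alone. No sham array lay above the filter level for Kif2c. Its changes of 1.20 ± 0.30 (log2 ± SE, 2.29-fold, adjusted p = 0.00438) for ablation plus estradiol and 0.99 ± 0.25 (log2 ± SE, 1.99-fold, adjusted p = 0.00352) for ablation, each against sham, shrank to 0.28 for ablation plus estradiol and 0.23 for ablation above that level. Between the treated groups Kif2c differed by 0.21 (95% interval -0.43 to 0.84).

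Racgap1, which with Ect2 sets up the ring that splits the cell, lay at -0.69 to 0.17 with a median of -0.31 on the 6 ablation plus estradiol arrays, at -1.21 to -0.10 with a median of -0.43 on the 11 ablation arrays, and at -1.06 to -0.58 with a median of -0.87 on the 14 sham arrays, with overlap between all groups. It was higher by 0.56 ± 0.12 (log2 ± SE, 1.47-fold, adjusted p = 0.0007) with ablation plus estradiol and by 0.42 ± 0.097 (log2 ± SE, 1.33-fold, adjusted p = 0.00184) with ablation, each against sham. The treated groups differed by 0.14 (95% interval -0.11 to 0.39). A second probe set for Racgap1 was called in neither comparison. It was negative in ablation against sham, at -0.098, and positive in ablation plus estradiol against sham. Ect2 itself lay at -1.44 to -0.79 with a median of -1.20 on the 6 ablation plus estradiol arrays, at -2.12 to -1.03 with a median of -1.40 on the 11 ablation arrays, and at -2.99 to -1.24 with a median of -1.77 on the 14 sham arrays, again with overlap. Ect2 was called with ablation plus estradiol against sham, at 0.72 ± 0.20 (log2 ± SE, 1.64-fold, adjusted p = 0.00921), and missed the threshold with ablation, at 0.40 ± 0.16 (adjusted p = 0.081). Ect2 was called in ablation against sham on leaving out sham replicate 6 or ablation replicate 4, where the lower adjusted p was 0.04.

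Ube2c, the ubiquitin enzyme that serves the anaphase-promoting complex, lay at -0.95 to -0.61 with a median of -0.73 on the 6 ablation plus estradiol arrays, at -1.54 to -0.44 with a median of -0.87 on the 11 ablation arrays, and at -2.01 to -0.99 with a median of -1.36 on the 14 sham arrays. Here all estradiol arrays lay above all sham arrays. The change was 0.60 ± 0.14 (log2 ± SE, 1.52-fold, adjusted p = 0.00246) with ablation plus estradiol and 0.47 ± 0.12 (log2 ± SE, 1.38-fold, adjusted p = 0.00378) with ablation, each against sham, and 0.14 (95% interval -0.16 to 0.43) between the treated groups. Nusap1, a spindle protein, lay at -1.34 to -0.01 with a median of -0.57 on the 6 ablation plus estradiol arrays, at -1.17 to -0.38 with a median of -0.76 on the 11 ablation arrays, and at -1.75 to -0.59 with a median of -1.09 on the 14 sham arrays. The groups overlapped. Nusap1 was called at 0.44 ± 0.15 (log2 ± SE, 1.36-fold, adjusted p = 0.0428) with ablation plus estradiol and at 0.36 ± 0.13 (log2 ± SE, 1.29-fold, adjusted p = 0.0375) with ablation, each against sham. Its second probe set was called in neither, and was negative in ablation against sham, at -0.077, and positive in ablation plus estradiol against sham. The call of Nusap1 in ablation plus estradiol against sham was lost on leaving out any one of sham replicates 2, 3, 4, 8, 9, 10 and 12 or estradiol replicates 1, 2, 4 and 5 (adjusted p up to 0.189). That in ablation against sham was lost without any one of sham replicates 3, 4, 8, 9 and 10 or ablation replicates 1, 7 and 10 (adjusted p up to 0.0713).

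The other mitosis members called in ablation plus estradiol against sham, and in no other comparison, were Aurkb, Top2a and Kif11. Aurkb, the Aurora kinase of the chromosome passenger complex, lay at -1.62 to -0.88 with a median of -1.14 on the 6 ablation plus estradiol arrays, at -2.02 to -0.998 with a median of -1.58 on the 11 ablation arrays, and at -2.12 to -1.32 with a median of -1.82 on the 14 sham arrays, and differed by 0.62 ± 0.15 (log2 ± SE, 1.54-fold, adjusted p = 0.00295). Top2a, the topoisomerase that untangles sister chromatids, lay at -0.96 to -0.14 with a median of -0.77 on the 6 ablation plus estradiol arrays, at -1.71 to -0.55 with a median of -1.29 on the 11 ablation arrays, and at -2.32 to -0.78 with a median of -1.46 on the 14 sham arrays, and differed by 0.76 ± 0.18 (log2 ± SE, 1.69-fold, adjusted p = 0.00324). Kif11, the kinesin that pushes the spindle poles apart, lay at -1.14 to -0.58 with a median of -0.78 on the 6 ablation plus estradiol arrays, at -1.39 to -0.77 with a median of -0.998 on the 11 ablation arrays, and at -1.57 to -0.70 with a median of -1.30 on the 14 sham arrays, and differed by 0.43 ± 0.12 (log2 ± SE, 1.35-fold, adjusted p = 0.0101). In ablation against sham the same 3 genes had log2 changes of 0.23 for Aurkb, 0.36 for Top2a and 0.23 for Kif11, with adjusted p-values of 0.19, 0.0917 and 0.0938. Whether their response to ablation differs from that to ablation plus estradiol is the comparison of those 2 groups, in which none was called. There Aurkb differed by 0.39 (95% interval 0.072 to 0.70), Top2a by 0.40 (95% interval 0.0087 to 0.79) and Kif11 by 0.20 (95% interval -0.052 to 0.45). The estradiol and sham arrays overlapped for all 3 genes. In ablation against sham Top2a was called without sham replicate 6 or ablation replicate 2 (lower adjusted p 0.0455), and Kif11 without sham replicate 2 (adjusted p = 0.0332). A second probe set for Top2a was also called higher with ablation than with sham, as was the mean of its kept probe sets.

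The mitosis members called in no comparison were Cdk1, Aurka, Plk1, Bub1, Cdc20, Birc5, Smc2 and Smc4. In ablation plus estradiol against sham, Plk1, a kinase of mitotic entry, had 0.79 (adjusted p = 0.0689) and Cdc20, an activator of the anaphase-promoting complex, 0.55 (adjusted p = 0.0555). Cdc20 was called there without any one of sham replicates 3, 6, 7, 8 and 9, ablation replicate 5 or estradiol replicate 6 (adjusted p down to 0.029). Bub1, a checkpoint kinase, had 0.50 (adjusted p = 0.092) and was called without sham replicate 6 (adjusted p = 0.0403). Birc5, survivin, had 0.19 (95% interval -0.24 to 0.62). Smc4, a condensin subunit, was the one mitosis member with a negative difference between ablation plus estradiol and sham, at -0.29. Against ablation alone it was -0.55 ± 0.20 (adjusted p = 0.1), and it was called without the 4 arrays highest in spermatid markers, at -0.68 with an adjusted p of 0.0177, and on leaving out ablation replicate 4 or estradiol replicate 4 (lower adjusted p 0.0339). A second probe set for Smc4 gave 0.13 for ablation plus estradiol against sham, the other direction, and -0.14 for ablation plus estradiol against ablation, neither called. Its condensin partner Smc2 had 0.15 in that comparison (95% interval -0.20 to 0.51).

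Of the genes that did not pass the filter, Bub1b was above the filter level on 1 ablation array and on no other, Cenpe on none, Kif20a on 3 estradiol and 2 ablation arrays, and Ccne1 on 4 ablation arrays and 1 sham array. Ccne1, one of the 2 cyclins E, lay at -2.57 to -1.97 with a median of -2.10 on the 6 ablation plus estradiol arrays, at -3.35 to -1.06 with a median of -1.95 on the 11 ablation arrays, and at -4.99 to -1.55 with a median of -2.30 on the 14 sham arrays. It was not tested.

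Of the S phase members the MCM helicase subunits Mcm4, Mcm6 and Mcm7 were higher in both treated groups than in sham. Mcm6 lay at -1.08 to -0.14 with a median of -0.63 on the 6 ablation plus estradiol arrays, at -1.12 to -0.086 with a median of -0.53 on the 11 ablation arrays, and at -2.01 to -0.80 with a median of -1.30 on the 14 sham arrays. The treated groups covered nearly the same range, and the lower end of each reached into the sham arrays. Mcm6 was higher by 0.74 ± 0.17 (log2 ± SE, 1.67-fold, adjusted p = 0.00161) with ablation plus estradiol than with sham and by 0.76 ± 0.14 (log2 ± SE, 1.7-fold, adjusted p = 8.6e-05) with ablation than with sham, while the treated groups differed by -0.022 (95% interval -0.38 to 0.33).

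Mcm4 lay at -0.25 to 0.14 with a median of -0.14 on the 6 ablation plus estradiol arrays, at -0.70 to -0.0033 with a median of -0.27 on the 11 ablation arrays, and at -1.73 to -0.34 with a median of -0.78 on the 14 sham arrays. The estradiol arrays were all above the sham arrays. The change of Mcm4 was 0.69 ± 0.13 (log2 ± SE, 1.62-fold, adjusted p = 0.000254) with ablation plus estradiol and 0.49 ± 0.11 (log2 ± SE, 1.41-fold, adjusted p = 0.0013) with ablation, each against sham, and 0.20 (95% interval -0.083 to 0.49) between the treated groups. Mcm7 lay at 0.50 to 0.94 with a median of 0.77 on the 6 ablation plus estradiol arrays, at 0.42 to 1.17 with a median of 0.76 on the 11 ablation arrays, and at 0.075 to 0.72 with a median of 0.41 on the 14 sham arrays, with overlap between all groups. It was higher by 0.35 ± 0.10 (log2 ± SE, 1.27-fold, adjusted p = 0.0136) with ablation plus estradiol and by 0.33 ± 0.083 (log2 ± SE, 1.26-fold, adjusted p = 0.00362) with ablation, each against sham, and the treated groups differed by 0.019 (95% interval -0.19 to 0.23). Mcm2 lay at -0.13 to 0.51 with a median of -0.035 on the 6 ablation plus estradiol arrays, at -0.41 to 0.08 with a median of -0.044 on the 11 ablation arrays, and at -0.88 to -0.0051 with a median of -0.26 on the 14 sham arrays, and its groups overlapped. It was called with ablation plus estradiol against sham, at 0.39 ± 0.11 (log2 ± SE, 1.31-fold, adjusted p = 0.0105), and not with ablation, at 0.20 (95% interval 0.017 to 0.38). The call of Mcm2 was lost without estradiol replicate 1 (adjusted p = 0.0597).

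The 2 other subunits of the ring were called in no comparison. In ablation plus estradiol against sham Mcm3 had 0.15 (95% interval -0.054 to 0.36) and Mcm5 0.31 (95% interval 0.036 to 0.58). In ablation against sham Mcm3 had 0.14 and Mcm5 0.24. The 6 subunits form a single ring in the cell, and all 6 changes against sham were positive in both treated groups. Of all 11379 genes tested, 5701 changes were positive with ablation and 5182 with ablation plus estradiol, each against sham. Both comparisons use the same sham arrays, and a shared change of the ring was not tested.

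Cyclin E2 was the one member called lower. Ccne2, which opens S phase with Cdk2, lay at -2.05 to -1.17 with a median of -1.49 on the 6 ablation plus estradiol arrays, at -1.22 to -0.51 with a median of -1.04 on the 11 ablation arrays, and at -1.54 to -0.81 with a median of -1.09 on the 14 sham arrays. Estradiol replicates 2, 5 and 6 were the lowest of all 31, and the other 3 lay within the range of the remaining arrays. Of the 6 estradiol arrays, 5 lay below every ablation array and 3 below every sham array. Ccne2 was lower by a log2 difference of -0.51 ± 0.13 (1.43-fold lower, adjusted p = 0.0122) with ablation plus estradiol than with ablation, and of -0.42 ± 0.13 (1.34-fold lower, adjusted p = 0.0177) than with sham. Ablation and sham differed by 0.088 (95% interval -0.12 to 0.30). Without estradiol replicate 6 the call of ablation plus estradiol against ablation was lost (adjusted p = 0.0733). That against sham was lost without any one of estradiol replicates 2, 5 and 6 (adjusted p up to 0.0997).

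Cdk2, the kinase partner of cyclin E, lay at -1.08 to 0.11 with a median of -0.45 on the 6 ablation plus estradiol arrays, at -0.96 to 0.05 with a median of -0.49 on the 11 ablation arrays, and at -2.72 to 0.19 with a median of -0.77 on the 14 sham arrays, and the groups overlapped. It differed by 0.25 (95% interval -0.23 to 0.73) between ablation plus estradiol and sham and by 0.21 (95% interval -0.18 to 0.61) between ablation and sham. Pcna, the sliding clamp, had 0.30 ± 0.11 (adjusted p = 0.0732) for ablation plus estradiol against sham and 0.21 ± 0.094 (adjusted p = 0.119) for ablation against sham. Pcna was called in ablation plus estradiol against sham without sham replicate 14 or estradiol replicate 5 (lower adjusted p 0.0119).

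The enzymes that supply nucleotides were not called. For ablation plus estradiol against sham the log2 difference was 0.34 for Rrm1, the large subunit of ribonucleotide reductase, 0.15 for thymidylate synthase, Tyms, and 0.086 for thymidine kinase, Tk1. For ablation against sham it was 0.27 for Rrm1, -0.092 for Tyms and -0.15 for Tk1. Rrm1 was called in ablation plus estradiol against sham without estradiol replicate 5 (adjusted p = 0.0195). Tyms was above the filter level on only 2 estradiol, 1 ablation and 3 sham arrays. A second probe set for Tk1 was called lower with ablation than with sham, at -0.31 (adjusted p = 0.0239).

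Promoters of some members are shown next, since many cell cycle genes are known to share short promoter motifs. In mammals the letters TTTGAA, called the CHR, are known from genes of G2 and mitosis and CCAAT from the same promoters, while the E2F factors bind the letters TTTCCCGC, TTTGGCGC and TTTCGCGC known from genes of S phase. RefSeq promoters (GRCr8) were at hand for 32 of the 40 members. The 250 bases before the start were searched for these letters on both strands, so that TTCAAA counts for the CHR, ATTGG counts for CCAAT, and GCGGGAAA, GCGCCAAA and GCGCGAAA count for E2F. Below are the 140 bases before the start, 5′ to 3′ on the gene's strand, of 4 mitosis members and 2 S phase members that were called, with those motifs in capitals.
Mki67 (chr1:199952594-199952733, minus strand): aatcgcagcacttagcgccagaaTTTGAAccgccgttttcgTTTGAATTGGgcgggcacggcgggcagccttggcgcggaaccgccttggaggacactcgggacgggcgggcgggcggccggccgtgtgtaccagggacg
Prc1 (chr1:143659341-143659480, plus strand): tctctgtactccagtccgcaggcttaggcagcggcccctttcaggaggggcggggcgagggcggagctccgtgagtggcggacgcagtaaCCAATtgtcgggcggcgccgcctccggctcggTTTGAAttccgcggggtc
Ccnb1 (chr2:33655226-33655365, minus strand): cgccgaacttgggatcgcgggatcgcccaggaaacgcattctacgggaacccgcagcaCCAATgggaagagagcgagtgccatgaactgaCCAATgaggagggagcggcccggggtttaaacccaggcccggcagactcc
Ccnb2 (chr8:79981659-79981798, minus strand): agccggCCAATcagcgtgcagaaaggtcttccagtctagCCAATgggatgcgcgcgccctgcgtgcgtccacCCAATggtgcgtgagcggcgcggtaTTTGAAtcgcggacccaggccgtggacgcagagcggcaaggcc
Mcm6 (chr13:42404353-42404492, minus strand): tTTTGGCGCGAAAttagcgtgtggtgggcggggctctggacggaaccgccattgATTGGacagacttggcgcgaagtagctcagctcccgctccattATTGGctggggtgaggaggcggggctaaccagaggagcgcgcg
Mcm7 (chr12:22163179-22163318, minus strand): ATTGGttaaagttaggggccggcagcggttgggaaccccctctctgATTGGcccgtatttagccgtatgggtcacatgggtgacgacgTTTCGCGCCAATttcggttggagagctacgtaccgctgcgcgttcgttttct
Mki67, Prc1 and Ccnb2 hold both TTTGAA and a CCAAT letter run (ATTGG on the other strand). In Ccnb2 the CHR begins 43 bases and in Prc1 18 bases before the start, each downstream of the CCAAT letters. In Mki67 the second TTTGAA shares its last base with ATTGG. Ccnb1 holds 2 CCAAT runs and no TTTGAA in this window. In Mcm6, TTTGGCGC and GCGCGAAA overlap, and in Mcm7, TTTCGCGC shares its last base with CCAAT.

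Over the whole search window TTTGAA or its reverse complement was found in 10 of 21 mitosis promoters (47.6%), in 1 of 11 S phase promoters (9.09%), in 16.2% of all 33469 promoters and in 11.3% of the 13193 promoters of genes on the array. CCAAT was found in 17 of 21 mitosis promoters (81%), 7 of 11 S phase promoters (63.6%), 34% of all and 34.6% of those on the array. The E2F letters were found in 5 of 11 S phase promoters (45.5%), 1 of 21 mitosis promoters (4.76%), 1.41% of all and 2.38% of those on the array. CHR and CCAAT stood together in 10 mitosis promoters and in no S phase promoter, against 5.87% of all and 4.14% of those on the array. These shares pool called and uncalled members. Among called mitosis members, Mki67, Prc1, Ccnb2, Top2a and Ect2 held TTTGAA or its reverse complement, and Ccnb1, Cenpf, Kif2c, Kif11 and Nusap1 did not. Of those not called or not tested, Cdk1, Cdc20, Birc5, Smc2 and Smc4 held it, and Aurka, Plk1, Bub1, Bub1b, Kif20a and Cenpe did not. A link of the motifs to the changes was not tested. A match describes the letters in the window and is no binding site by itself.

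Other genes of the cell cycle were read from 5 lists. Each is given by its probe set with the highest mean alone. Ccnd1, Cdkn1a, Cdkn1b and Cdkn2c are among those with further probe sets that passed the filter, which are not given here. Of all genes, 5.28% were called higher and 11.9% lower with ablation plus estradiol against sham, 0.729% and 2.73% with ablation plus estradiol against ablation, and 9.24% and 12.8% with ablation against sham. Of 30 other mitosis genes tested, 13 were higher and none lower with ablation plus estradiol against sham, none was called against ablation alone, and 17 were higher and none lower with ablation against sham. Their median change was 0.39 for ablation plus estradiol against sham, 0.14 for ablation plus estradiol against ablation and 0.42 for ablation against sham. Stmn1, stathmin, a regulator of microtubules, lay at 1.57 to 2.24 with a median of 1.995 on the 6 ablation plus estradiol arrays, at 0.99 to 1.98 with a median of 1.59 on the 11 ablation arrays, and at -0.18 to 0.85 with a median of 0.47 on the 14 sham arrays. Stmn1 in both treated groups lay above every sham array, with changes of 1.51 ± 0.13 (log2 ± SE, 2.86-fold, adjusted p = 1.76e-11) for ablation plus estradiol and 1.09 ± 0.11 (log2 ± SE, 2.12-fold, adjusted p = 4.2e-10) for ablation. Spc25, a part of the Ndc80 complex at the kinetochore, lay at -0.54 to 0.00 with a median of -0.25 on the 6 ablation plus estradiol arrays, at -0.73 to -0.15 with a median of -0.43 on the 11 ablation arrays, and at -1.84 to -0.89 with a median of -1.26 on the 14 sham arrays, and also lay above every sham array in both treated groups, with changes of 1.04 for ablation plus estradiol and 0.88 for ablation. Melk, a kinase of dividing cells, was higher by 1.14 with ablation plus estradiol than with sham (adjusted p = 9.88e-06), and Nuf2, another part of the Ndc80 complex, by 0.74 (adjusted p = 5.01e-05).

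Replication genes outside the member list were read next. Of 24 genes of origin licensing, forks and checkpoint, 3 were higher and 1 lower with ablation plus estradiol against sham, 1 higher and 1 lower against ablation, and 1 higher and none lower with ablation against sham. In the first comparison that is 12.5% higher and 4.17% lower, against 5.28% and 11.9% of all genes. In the second it is 4.17% each way, against 0.729% and 2.73%. In the third the 4.17% called higher lay below the 9.24% of all genes. The single genes below are therefore not read as a change of the whole list. The median change of the 24 genes was 0.15 for ablation plus estradiol against sham, 0.04 for ablation plus estradiol against ablation and 0.13 for ablation against sham. Uhrf1, which guides DNA methylation at the fork, was higher with ablation plus estradiol by 0.93 ± 0.20 (log2 ± SE, 1.91-fold, adjusted p = 0.00108) than with sham and by 0.77 ± 0.21 (log2 ± SE, 1.71-fold, adjusted p = 0.0214) than with ablation, and these became 0.39 and 0.36 above the filter level. Pole2, a subunit of DNA polymerase epsilon, differed by 0.59 ± 0.15 (log2 ± SE, 1.51-fold, adjusted p = 0.00365) between ablation plus estradiol and sham. Pold1, the catalytic subunit of DNA polymerase delta, was higher by 0.47 with ablation than with sham (adjusted p = 0.0128). Pola2, of the polymerase that lays down primers, was called lower with ablation plus estradiol than with ablation, at -1.38 (adjusted p = 0.0259), a change of -0.20 above the filter level.

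Cyclins D1 and D3 of G1 were lower in both treated groups than in sham. Of 5 G1 cyclins and kinases tested none was higher, and 2 were lower in each treated group than in sham. The median changes were -0.08 for ablation plus estradiol against sham, 0.01 against ablation, and -0.37 for ablation against sham. Ccnd1, cyclin D1, lay at -0.52 to 0.16 with a median of -0.14 on the 6 ablation plus estradiol arrays, at -0.13 to 0.79 with a median of 0.12 on the 11 ablation arrays, and at 0.21 to 1.13 with a median of 0.68 on the 14 sham arrays. Its difference was -0.81 ± 0.13 (adjusted p = 1.46e-05) for ablation plus estradiol against sham, with every estradiol array below every sham array (as for 2.87% of all genes), and -0.45 ± 0.11 (adjusted p = 0.00231) for ablation against sham. Ccnd3, cyclin D3, had -0.79 (adjusted p = 3.07e-05) for ablation plus estradiol against sham and -0.51 (adjusted p = 0.000786) for ablation against sham.

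Of 12 brakes on the cycle tested, 2 were higher and 2 lower than sham in each treated group, and none was called between the treated groups. The 16.7% called lower lay near the share of all genes called lower in both comparisons. The median changes were 0.05 for ablation plus estradiol against sham, -0.02 against ablation, and 0.05 for ablation against sham. Cdkn1c, the inhibitor p57, lay at -0.76 to -0.30 with a median of -0.63 on the 6 ablation plus estradiol arrays, at -0.79 to -0.25 with a median of -0.60 on the 11 ablation arrays, and at -1.68 to -1.06 with a median of -1.37 on the 14 sham arrays, with both treated groups above every sham array. Its change was 0.77 ± 0.10 (log2 ± SE, 1.71-fold, adjusted p = 6.44e-07) for ablation plus estradiol and 0.82 ± 0.086 (log2 ± SE, 1.77-fold, adjusted p = 2e-09) for ablation. Cdkn1b, the inhibitor p27, lay at 2.12 to 3.01 with a median of 2.65 on the 6 ablation plus estradiol arrays, at 1.94 to 2.66 with a median of 2.18 on the 11 ablation arrays, and at 1.54 to 2.40 with a median of 1.89 on the 14 sham arrays, and was higher by 0.71 ± 0.13 (log2 ± SE, 1.64-fold, adjusted p = 9.88e-05) with ablation plus estradiol and by 0.32 ± 0.11 (log2 ± SE, 1.25-fold, adjusted p = 0.0309) with ablation. Cdkn1a, the p53 target p21, was not called, with -0.044 (95% interval -0.25 to 0.16) for ablation plus estradiol and -0.066 (95% interval -0.24 to 0.10) for ablation. Ccng1, cyclin G1, also a p53 target, was lower by log2 differences of -0.51 with ablation plus estradiol and -0.40 with ablation, each against sham. Cdkn2c, the Cdk4 inhibitor p18, was lower by log2 differences of -0.41 with ablation plus estradiol and -0.38 with ablation, each against sham.

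Among 11 cell cycle transcription factors 5 were higher and none lower with ablation plus estradiol against sham, 1 was higher against ablation, and 4 were higher and 2 lower with ablation against sham. The 18.2% called lower in the last comparison lay near the 12.8% of all genes. The median change was 0.47 for ablation plus estradiol against sham, 0.16 for ablation plus estradiol against ablation and 0.30 for ablation against sham. Myc, a driver of growth and G1 entry, lay at -0.74 to -0.38 with a median of -0.63 on the 6 ablation plus estradiol arrays, at -2.06 to -0.87 with a median of -1.52 on the 11 ablation arrays, and at -1.21 to -0.36 with a median of -0.69 on the 14 sham arrays. Every estradiol array lay above every ablation array. Myc was higher by 0.92 ± 0.15 (log2 ± SE, 1.9-fold, adjusted p = 6.36e-05) with ablation plus estradiol than with ablation, differed from sham by 0.13 (95% interval -0.16 to 0.41), and was lower with ablation than with sham, at -0.80 ± 0.12 (adjusted p = 2.76e-06). Its relative Mycn lay at 0.07 to 0.77 with a median of 0.25 on the 6 ablation plus estradiol arrays, at -0.37 to 0.48 with a median of 0.065 on the 11 ablation arrays, and at -0.97 to -0.25 with a median of -0.63 on the 14 sham arrays, and was higher by 0.97 ± 0.12 (log2 ± SE, 1.96-fold, adjusted p = 2.56e-07) with ablation plus estradiol and 0.63 ± 0.10 (log2 ± SE, 1.55-fold, adjusted p = 1.6e-05) with ablation, each against sham. E2f5, a repressor E2F, was higher by 0.47 with ablation plus estradiol (adjusted p = 0.00273) and by 0.30 with ablation (adjusted p = 0.021), each against sham. E2f8, another repressor, was called in ablation plus estradiol against sham, at 1.17 (adjusted p = 0.00555).

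**Figure D4:**
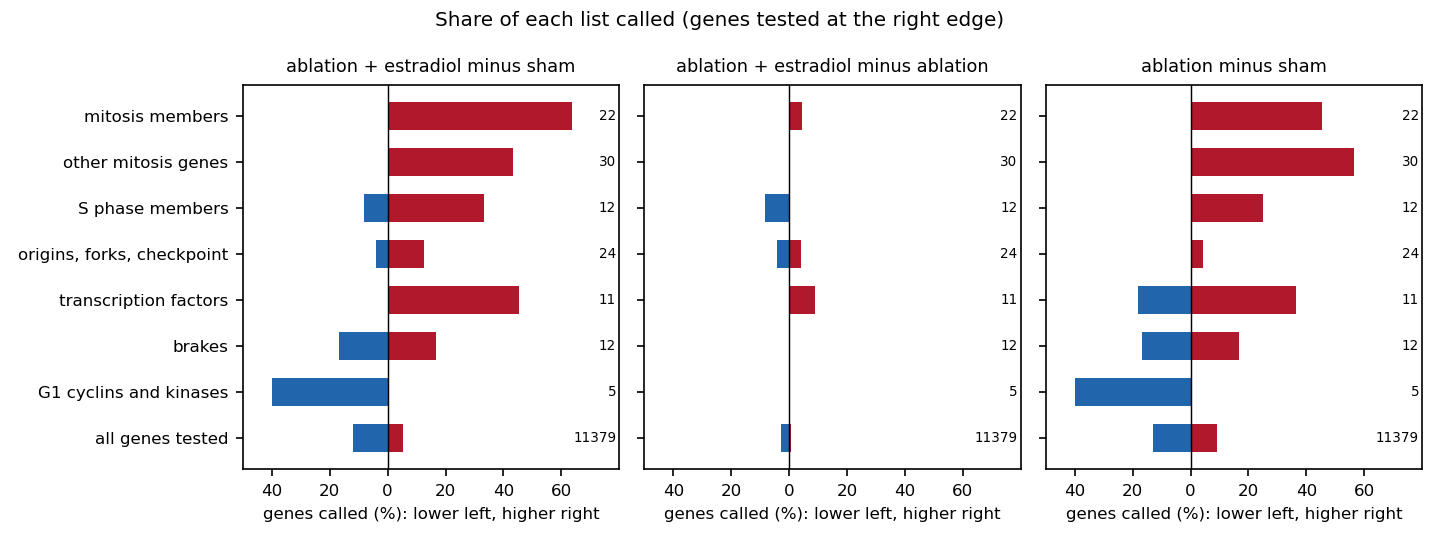
Share of the genes tested in each list that were called higher (red, right) or lower (blue, left) in each comparison, with the number tested at the right edge. In the outer panels the mitosis bars reach beyond 40%, against 5.28% and 9.24% of all genes called higher.

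Markers of cells that could hold these RNAs are given next, and their part in the members' changes was not tested. Of all genes, 5.28% were called higher and 11.9% lower with ablation plus estradiol against sham. These shares were 0.729% and 2.73% with ablation plus estradiol against ablation, and 9.24% and 12.8% with ablation against sham. Of 17 listed markers of undifferentiated spermatogonia 10 were tested, and 7 were higher with ablation plus estradiol than with sham, 2 than with ablation, and 6 with ablation than with sham, with none lower. Their summed level, on the linear scale, was 9.02 to 11.8 on the estradiol arrays, 6.52 to 9.47 on the ablation arrays and 5.18 to 8.85 on the sham arrays. For the mitosis members that sum was 12.1 to 15.7 with ablation plus estradiol, 10.1 to 13.7 with ablation and 7.09 to 11.8 with sham, and for the S phase members 10.8 to 14.7 with ablation plus estradiol, 10.5 to 14.3 with ablation and 8.83 to 11.2 with sham. The mean log2 of the spermatogonial markers was -0.47 to -0.16 with ablation plus estradiol, -0.96 to -0.48 with ablation and -1.80 to -0.96 with sham, and every estradiol array lay above all other arrays. Nanos3, Lin28a, Cdh1 and Neurog3 did not pass the filter. Of 13 Sertoli cell markers 8 were tested, 4 of them higher with ablation plus estradiol and 3 with ablation than with sham, with sums of 87.9 to 170 with ablation plus estradiol, 137 to 178 with ablation and 70.2 to 180 with sham. The sums overlap, while the mean log2 of the same 8 markers was 2.52 to 3.03 with ablation plus estradiol, 2.71 to 3.05 with ablation and 2.13 to 2.67 with sham, so that every ablation array lay above every sham array.

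Markers of several cell types outside the germ line were lower in the treated groups. Against sham, 11.9% of all genes were called lower with ablation plus estradiol and 12.8% with ablation. Higher were 5.28% and 9.24%, and 2.73% were lower with ablation plus estradiol than with ablation. Of 8 macrophage markers 5 were lower with ablation plus estradiol and 7 with ablation than with sham, and their summed level was 10.1 to 13.1 with ablation plus estradiol, 9.7 to 13.5 with ablation and 14.1 to 22.2 with sham. The sums of the treated arrays all lay below those of sham, while the mean log2 of the macrophage markers overlapped, at 0.11 to 0.50 with ablation plus estradiol, -0.055 to 0.47 with ablation and 0.28 to 1.11 with sham. Of 5 markers of peritubular myoid cells 3 were lower than sham in each treated group, with sums of 10.2 to 13.2 with ablation plus estradiol, 8.59 to 15.1 with ablation and 11.1 to 22.4 with sham. In each treated group 5 of the 7 markers of Leydig cells fell below sham and 2 rose above it, and 3 were lower with ablation plus estradiol than with ablation. Their sums were 33.2 to 68.3 with ablation plus estradiol, 46 to 62.7 with ablation and 54.5 to 112 with sham. The mean log2 of the Leydig cell markers was 0.45 to 1.09 with ablation plus estradiol, 0.88 to 1.58 with ablation and 2.39 to 3.22 with sham, with every treated array below every sham array. Of 5 endothelial markers 2 were lower with ablation than with sham and none was called in the other comparisons, and of 3 markers of lymphocytes and mast cells none was called. The share of RNA that each cell type gives to the array was not measured.

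Of 11 markers of meiotic spermatocytes 2 were tested, and Sycp3, of the synaptonemal complex, was higher by 1.10 with ablation plus estradiol (adjusted p = 0.0283) and by 0.97 with ablation (adjusted p = 0.0146) than with sham. The other, Ldhc, was not called. The mean log2 of the 2 had a median of -2.43 on the sham arrays, below the filter level. Of 5 markers of all germ cells 1 was tested, Tex101. It was called higher with ablation plus estradiol than with sham, by 1.11, and in no other comparison. Of 3 markers of differentiating spermatogonia 1 was higher with ablation plus estradiol than with sham, and 1 higher and 1 lower with ablation than with sham. For all genes the shares were 5.28% higher in the first comparison, and 9.24% higher and 12.8% lower in the second. Lists of 1 to 3 tested genes are too short to set against them. Sycp1, Sycp2, Spo11 and Ccna1 did not pass the filter. The 4 spermatid markers tested had summed levels of 0.511 to 0.927 on the estradiol arrays, 0.579 to 22.3 on the ablation arrays and 0.49 to 72.3 on the sham arrays. Within the sham group, 14 of the 22 mitosis members had their highest value in replicate 6 or 7, the 2 sham arrays highest in spermatid markers, against 1 of 12 S phase members (Rrm1) and 13.6% of all genes tested. The 2 arrays are 2 animals at most, so this is given as a description.

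**Figure D5:**
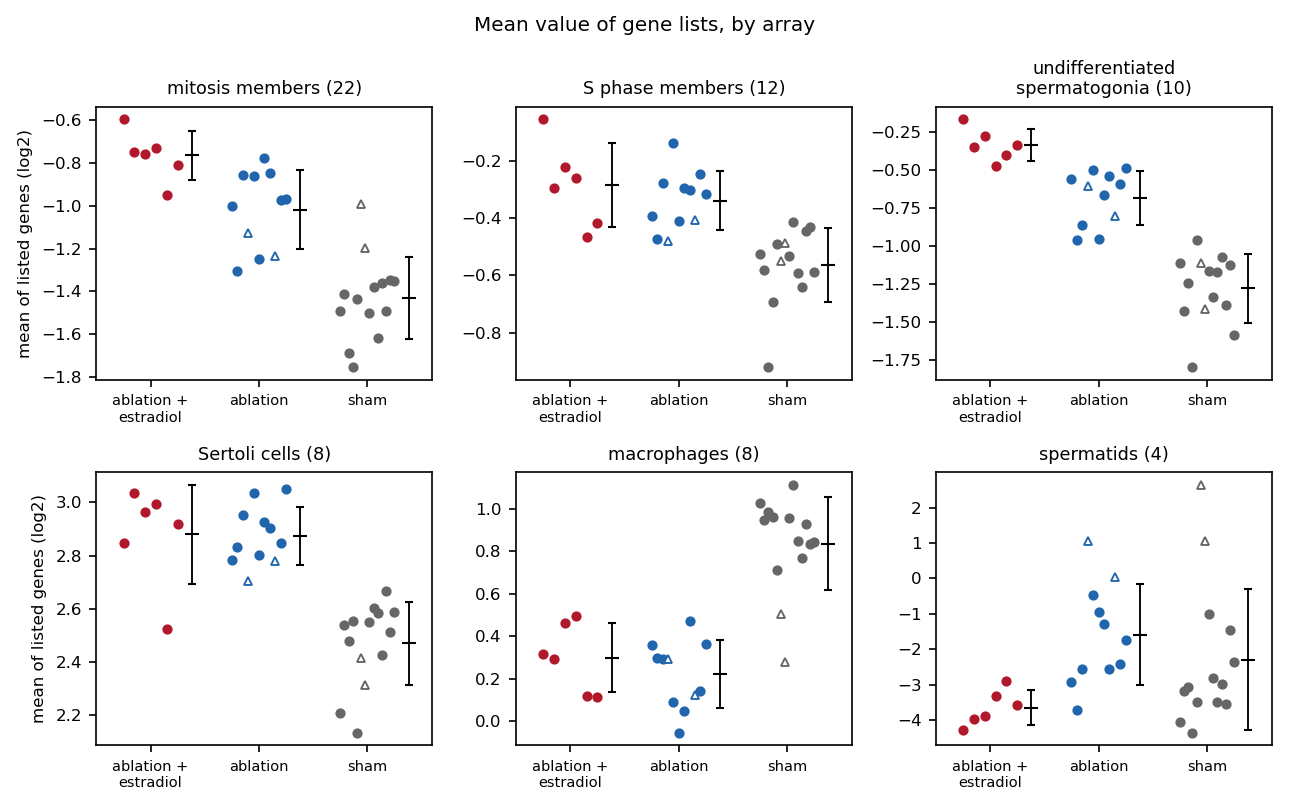
Mean of the deposited values (log2) over the tested genes of 6 lists, on every array, with the mean and SD of each group. Open triangles mark the 4 arrays highest in spermatid markers. The means of the mitosis members and of the spermatogonial markers are highest with ablation plus estradiol and lowest with sham, and that of the macrophage markers is highest with sham.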

How the data were processed

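Testis RNA on 31 arrays was analysed. The deposited values are MAS5 signals on a log scale, read as log2, per the submitters' processing notes and the file's own values; the version, the base and the scaling target are not given in the sources used here. The 6 estradiol arrays carry 2 decimals and lack control values. Values were used as deposited. Of 31099 probe sets, 57 controls were left out, and 21269 of the other 31042 passed the filter. Names came from the platform annotation, updated through Entrez numbers for 20758 probe sets; 20826 had 1 symbol, 436 several and 9780 none.

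All 31 arrays and 3 groups, taken from the treatment labels, were fitted with limma 3.58.1 (R 4.3.3; lmFit, eBayes with a trend), 2-sided, with Benjamini-Hochberg adjustment over all 21269 probe sets. The script was tested on simulated data. The change above the filter level sets every value below its array's 40th percentile to that percentile. No term for the deposit could be fitted.

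The members and lists were chosen with earlier results of these data known. All members are accounted for; those called, and the named cyclins with Cdk1 and Cdk2, are given per group, and from each other list up to 4 called genes with the smallest adjusted p, plus Cdkn1a and Cdkn1b. Promoters came from RefSeq (GRCr8). Alternatives covered filters, scaling, probe sets, sham descriptions, a replicate block, single arrays and the arrays highest in spermatid markers.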

Additional observations from a re-analysis of the deposited data

Results flagged for a closer look

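In the 6 ablation plus estradiol arrays, 3 of the 38 members had 1 array far from the others by Dixon's test, where chance flags about 1 group in 20. Rrm1 was lowest in estradiol replicate 5, at -1.25, while the other 5 arrays lay between -0.15 and 0.35. Ccnb2 was highest in estradiol replicate 3, at -0.43, with the others between -0.85 and -0.70. Top2a was highest in estradiol replicate 1, at -0.14, with the others between -0.96 and -0.69. The groups of 11 and 14 arrays were not tested in this way.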

How the results depend on the processing

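Counts of members are given as higher and lower. In ablation against sham (13 and 0) the alternatives left 11 to 15 higher, except with the 4 sham arrays described as irradiated. Those gave 6 (853 against 1947 of all probe sets called higher). With the second probe set of 8 members 1 was lower, Tk1, and Top2a was called higher. Nusap1 and Racgap1 turned there, to -0.077 and -0.098, neither called. In ablation plus estradiol against ablation (1 and 1), 0 were higher without the filter, with the mean of kept probe sets and without the 4 arrays highest in spermatid markers (2 lower). With the replicate number as a block (replicate block) 0 and 0 were called, as Ccna2 and Ccne2 were both lost. The filter at the 60th percentile also gave 0 and 0, but it left 25 of the 34 members, and Ccna2 and Ccne2 were not tested there. Probe sets called higher were 126, against 312 after quantile normalization, 210 after median centring and 198 with only the compared groups. In ablation plus estradiol against sham (18 and 1), 8 and 0 were called with the sham arrays described as irradiated (380 and 1322 of all probe sets, against 882 and 2211), 0 lower with the 60th percentile filter, where Ccne2 was not tested, and 15 and 0 with the replicate block, where Ccne2, Aurkb, Kif11 and Nusap1 were lost (adjusted p of 0.0584 to 0.0903), and 1753 probe sets were higher after quantile normalization. Leaving out single arrays gave 11 to 15 higher and 0 lower in ablation against sham, 0 to 1 higher and 0 to 2 lower in ablation plus estradiol against ablation, and 16 to 21 higher and 0 to 1 lower in ablation plus estradiol against sham. The replicate numbers share no known source. Deviations of same-numbered arrays from their group means correlated at -0.09 to 0.05 over 11 pairs of ablation and sham, -0.18 to 0.06 over 6 of estradiol and ablation, and -0.01 to 0.38 over 6 of estradiol and sham, of which 3 lay over 0.1, so the numbers were not taken to pair the arrays, and the block moved no count of members called higher by over 1.5 times in ablation against sham or ablation plus estradiol against sham. The causes were not tested.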
